A study of Mus musculus with 12 samples.

Results

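CD8+ T cells, the T cells that kill infected and malignant cells, were compared between IL-12 and IL-2 with 80%TCM present on both sides. Of the 12 libraries of the series, 6 enter the comparison, chosen by their treatment label: 3 of cells given IL-12 and 80%TCM and 3 of cells given IL-2 and 80%TCM. All are total RNA of CD8+ T cells of the strain C57BL/6 taken from splenocytes, and no label gives a genotype, an age, a way of isolating the cells or a culture time. The other 6 libraries, 3 with IL-2 and 3 with IL-12, hold the same cytokines without TCM. The labels do not spell out TCM, and the series is titled for tumor-like conditions. Whether the 3 libraries of a group are separate animals or cultures is not stated. A p-value thus reflects the spread among libraries alone, which was estimated over all 12 of the series, and that spread may be technical. Below, the groups are called IL-2 TCM and IL-12 TCM.

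IL-2 binds a receptor whose signal runs mainly through JAK1, JAK3 and STAT5 and drives T cells to divide, survive and arm themselves. IL-12, made by dendritic cells and macrophages, binds a receptor of the chains Il12rb1 and Il12rb2 and signals through JAK2, TYK2 and STAT4. It is best known for inducing interferon gamma and the transcription factor T-bet, and for driving short-lived effector cells at the cost of memory precursors.

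The 6 libraries held 19500568 to 26007717 counts on genes. Of 55487 genes listed, 15897 had enough counts to be tested, and levels are given in CPM, counts per 1e+06 counts on library sizes scaled by TMM, as mean ± SD over n = 3 libraries or library by library. Replicate 3 stood apart in IL-2 TCM, and likewise in IL-2 without TCM. Between replicates 1 and 2 of IL-2 TCM the chi-square per degree of freedom was 4.32, between these and replicate 3 it was 40.4 and 45.4, and among the IL-12 TCM libraries it was 2.89 to 3.47. In replicate 3, 22 of 23 glycolysis genes and 26 of 29 hypoxia response genes were higher than in both other IL-2 TCM libraries, with median shifts of 1.24 and 1.25 on the log2(CPM + 1) scale. Many results that rest on that library are given with and without it. A list count given only with all libraries may still change without it.

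In edgeR's quasi-likelihood fit with adjustment by Benjamini-Hochberg, 6192 of the 15897 genes were called at a threshold of 0.05, which is 39% of the genes tested. Higher in IL-12 TCM were 3106 genes (19.5%) and lower were 3086 (19.4%). The counts of list members given below are to be read beside these shares. The median fold of the called genes was 1.46. At least 2-fold higher were 742 genes (4.67%) and at least 2-fold lower were 921 (5.79%), and 143 were at least 8-fold higher and 83 at least 8-fold lower. The 6 libraries of the groups did not overlap for 7948 of the genes tested (50%), among them 6018 of the called genes. The balance of directions depended on the scaling: with upper-quartile scaling 2331 genes were called higher and 3971 lower, against 3106 and 3086 with TMM. Over all genes tested the median log2 fold change was -0.01, and -0.08 with upper-quartile scaling. Without replicate 3 of IL-2 TCM 834 calls were lost, 865 were gained and no call changed direction.

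**Figure D1:**
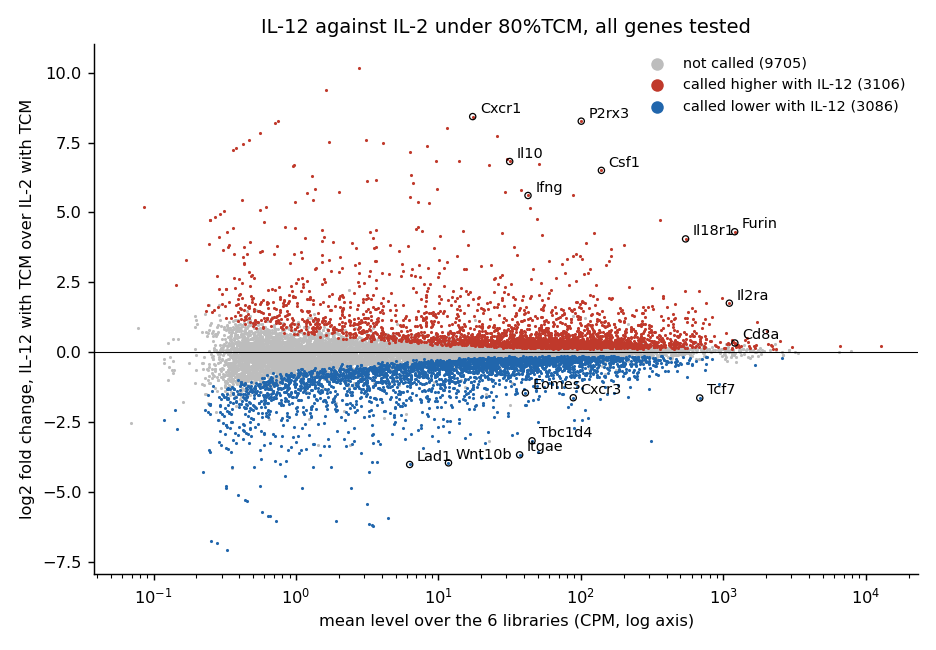
Log2 fold change of IL-12 TCM over IL-2 TCM for each of the 15897 genes tested (vertical axis) against its mean level over the 6 libraries in CPM (horizontal log axis), with the 3106 genes called higher in red, the 3086 called lower in blue and the rest in grey. The highest fold changes belong to genes near 0 in IL-2 TCM, such as Cxcr1 and P2rx3, while Furin, Il18r1 and Il2ra stand out at high levels.

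Ifng, Il10, the IL-18 receptor genes and Furin rose strongly under IL-12. Ifng (ENSMUSG00000055170), the cytokine of type 1 immunity, was at 1.89, 1.36 and 1.91 CPM in the IL-2 TCM libraries and at 77.8, 87 and 85.2 CPM in the IL-12 TCM libraries. All 3 IL-12 TCM libraries lay far above the IL-2 TCM libraries, 48.7-fold on average (log2 fold change 5.61 ± 0.16, adjusted p = 1.4e-11). Il10 (ENSMUSG00000016529), an inhibitory cytokine that strongly stimulated effector T cells also make, was at 0.63, 0.48 and 0.558 CPM in the IL-2 TCM libraries and at 60.1, 65.7 and 62.3 CPM in the IL-12 TCM libraries (113-fold higher, log2 fold change 6.82 ± 0.16, adjusted p = 2.7e-12). Bulk RNA cannot tell fewer cells that make a transcript from less of it per cell, here and in every result below. Il18r1 and Il18rap, the 2 chains of the receptor for IL-18, a cytokine that acts together with IL-12 on Ifng, rose as well. Il18r1 (ENSMUSG00000026070) was at 67.9, 64 and 53.5 CPM in the IL-2 TCM libraries and at 1009, 1004 and 1061 CPM in the IL-12 TCM libraries, and Il18rap rose from 72.6 ± 3.51 to 363 ± 1.47 CPM. Furin, a protease that cleaves proproteins, was at 121, 109.5 and 116 CPM in the IL-2 TCM libraries and at 2270.2, 2342 and 2251 CPM in the IL-12 TCM libraries (19.8-fold higher, log2 fold change 4.31 ± 0.07, adjusted p = 1.3e-13). The groups of Ifng, Il10, Il18r1 and Furin did not come near each other in any library.

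Of the 28 tested genes of a list of genes that IL-12 induces in T cells, 18 rose and 3 fell, with a median log2 fold change of 1.02 beside -0.01 over all genes. Further members that rose were Gadd45g, a stress adaptor that promotes Ifng expression (12.1 ± 3.54 to 234 ± 10.6 CPM), Map3k8, a kinase upstream of ERK (26.9 ± 2.27 to 157 ± 8.35 CPM), Gbp2, an interferon-induced GTPase (245 ± 12.3 to 1115 ± 43 CPM), and Hlx, a homeobox factor that works with T-bet. Hlx had only 7 counts over the 3 IL-2 TCM libraries and was at 7.48, 7.37 and 6.84 CPM in the IL-12 TCM libraries, so the size of its fold is not well fixed. The members that fell were the serpins Serpina3f (20.9 ± 2.81 to 2.87 ± 0.327 CPM) and Serpina3g (23.4 ± 6.17 to 7.24 ± 0.177 CPM), which belong to a cluster of near-identical genes and may share reads, and Ets2, an ETS factor (14.6 ± 1.56 to 8.8 ± 0.555 CPM).

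The receptor and its signal chain moved little by comparison. Both receptor chains rose, Il12rb1 from 89.9 ± 19.1 to 140.1 ± 3.95 CPM (1.56-fold) and Il12rb2 from 201 ± 50.4 to 362 ± 20.1 CPM (1.8-fold). In both genes replicate 3 of IL-2 TCM lay highest in its group, with Il12rb1 at 78.4, 79.3 and 112 CPM in replicates 1, 2 and 3. Stat4 fell from 128 ± 2.89 to 87.1 ± 1.93 CPM and Jak2, the kinase on Il12rb2, from 180.3 ± 1.22 to 144 ± 2.9 CPM. Of the 7 tested members of that list 2 rose and 2 fell.

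The motif that STAT factors bind, TTCNNNGAA (searched on both strands, and equal to its own reverse complement), was looked for in the promoter windows of 8 genes, the granzyme gene Gzmb and 7 genes of cytokines, their receptors and their feedback. It was found for Ifng, Il18r1, Socs3, a feedback gene described further below, Cish and Gzmb, and not in the windows of Il18rap and Il2ra. No window was matched for Il10. Shown are the 3 genes that rose and hold a match, while Cish was called lower and Gzmb was not called. The stretches around it, upstream of the start site, were taken from RefSeq on GRCm38.p6 and show the letters behind that statement, with the match in capitals. They lie at chr10:118440796-118440825, plus strand for Ifng, chr1:40465767-40465882, plus strand for Il18r1 and chr11:117969492-117969540, minus strand for Socs3, and each runs 5′ to 3′ on the strand of its gene.
Ifng: tTTCAGAGAAtcccacaagaatggcacagg
Il18r1: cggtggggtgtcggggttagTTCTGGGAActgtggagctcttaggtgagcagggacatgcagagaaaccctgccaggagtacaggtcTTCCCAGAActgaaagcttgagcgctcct
Socs3: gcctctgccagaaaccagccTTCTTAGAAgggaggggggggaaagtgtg
The first match began 249, 219 and 154 bases before the start site, and Il18r1 held 2 matches, in 1 of its 3 promoter windows. Such matches were common: of 10291 tested genes with a promoter window 867 held one (8.42%), against 9.29% of the genes called at least 2-fold higher, 7.78% of those called at least 2-fold lower and 8.6% of those not called. A window covers 250 bases before to 50 after the start site, and 8.3% of all 32851 windows held the motif. The AP-1 motif TGANTCA was held by 9.9% of the genes called at least 2-fold higher and 7.45% of those called at least 2-fold lower. It was held by 5.94% of those not called and 6.14% of all tested genes with a promoter window. Further motifs were searched as well. Of the genes called at least 2-fold higher, 27.3%, 1.41% and 4.65% held them, against 28.9%, 1.45% and 3.82% of those not called. AP-1 is thus the motif with the largest excess, picked from those searched. All these shares describe letters and not binding.

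**Figure D2:**
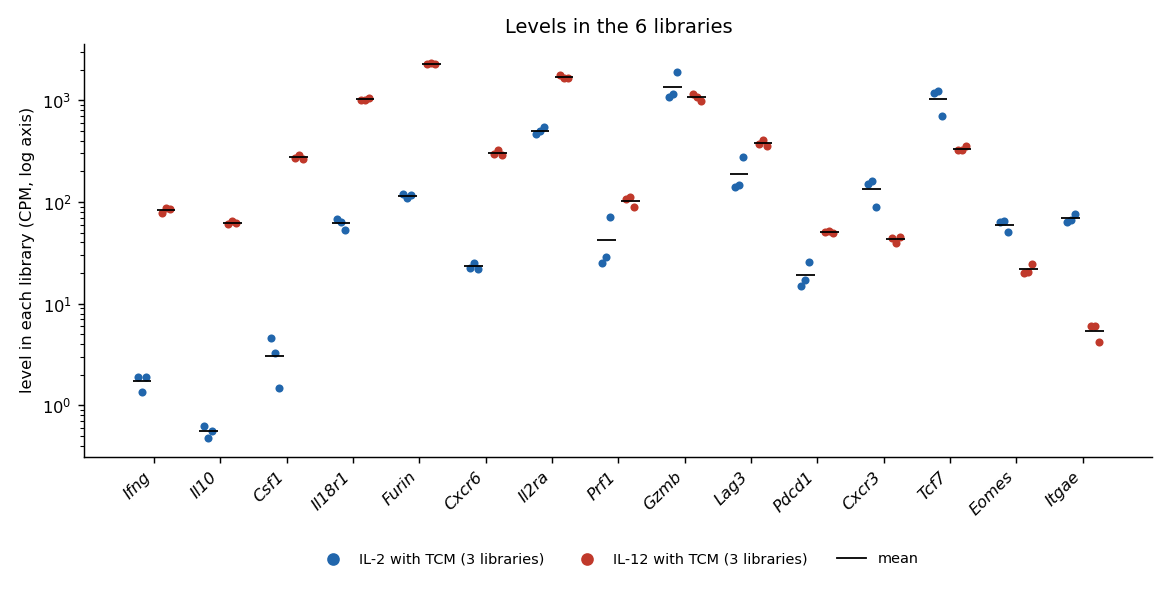
Level of selected genes in CPM on a log axis in each of the 3 IL-2 TCM libraries (blue) and 3 IL-12 TCM libraries (red), with the mean as a bar. The groups are apart for Ifng, Il10, Csf1, Il18r1, Furin, Cxcr6, Il2ra, Pdcd1, Lag3, Prf1, Cxcr3, Tcf7, Eomes and Itgae and overlap for Gzmb, and 1 IL-2 TCM library lies toward the IL-12 TCM level for Prf1, Lag3, Pdcd1, Cxcr3 and Tcf7.

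The genes with the highest fold changes at 10 CPM or more were for the most part better known from other cells. P2rx3 (ENSMUSG00000027071), an ATP-gated channel known from sensory neurons, was at 0.969, 0.369 and 0.678 CPM in the IL-2 TCM libraries and at 203, 192 and 206 CPM in the IL-12 TCM libraries (307-fold higher, log2 fold change 8.26 ± 0.17, adjusted p = 1.3e-12). Csf1 (ENSMUSG00000014599), the growth factor of macrophages, was at 4.55, 3.25 and 1.48 CPM in the IL-2 TCM libraries and at 271, 289.7 and 266 CPM in the IL-12 TCM libraries (90.7-fold higher, log2 fold change 6.50 ± 0.23, adjusted p = 9.9e-11). Both were near 0 with IL-2 and abundant with IL-12. Cxcr1 and Cxcr2, receptors for chemokines of the IL-8 family that are best known on neutrophils, were higher too. Cxcr1 was at 0.0485, 0.148 and 0.0798 CPM in the IL-2 TCM libraries and at 36.2, 34.6 and 33.2 CPM in the IL-12 TCM libraries. Cxcr2 was at 0.0969, 0.221 and 0.16 CPM in the IL-2 TCM libraries and at 18.8, 19.8 and 18.9 CPM in the IL-12 TCM libraries. The IL-2 TCM libraries together held 7 counts of Cxcr1 and 12 of Cxcr2, so only the direction of these folds is well measured. The neutrophil genes S100a9, Elane and Retnlg had no count in any of the 6 libraries, and the 8 neutrophil genes together reached 0.812 CPM at most with IL-2 and 0.645 CPM with IL-12.

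The other 8 of the 12 highest were Serpinb5, the serpin maspin, Mecom, a zinc-finger factor of blood stem cells, Sema3b, a secreted semaphorin, Fam20a, a pseudokinase known from enamel formation, Rufy4, an endosomal adaptor, Ret, a receptor tyrosine kinase, Trim66, a chromatin reader, and Il10. Trim66 rose from 0.969 ± 0.297 to 101 ± 6.55 CPM and Fam20a from 0.486 ± 0.273 to 59.8 ± 4.07 CPM. Serpinb5 rose from 0.243 ± 0.118 to 51.2 ± 1.21 CPM, Ret from 0.431 ± 0.0582 to 44.5 ± 1.11 CPM and Rufy4 from 0.237 ± 0.124 to 27.6 ± 0.759 CPM. Mecom and Sema3b had 7 and 6 counts over the 3 IL-2 TCM libraries and reached 17.6, 14.9 and 17.4 CPM and 11.7, 12.8 and 12.9 CPM with IL-12. The adjusted p-values of the 12 genes ran from 1.3e-12 for P2rx3 to 1.6e-09 for Sema3b.

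P2rx7, the ATP receptor that opens a large pore and can kill T cells, was also far higher, at 2.71, 2.14 and 5.62 CPM in the IL-2 TCM libraries and at 95.7, 95.7 and 93.9 CPM in the IL-12 TCM libraries (27.1-fold, log2 fold change 4.76 ± 0.21, adjusted p = 1.3e-09). It belongs to a list of receptors and ectoenzymes of extracellular nucleotides, of which 8 of 17 tested members rose and 3 fell. Entpd1, the ectoenzyme CD39 that degrades ATP, rose from 28 ± 11.3 to 80.2 ± 4.98 CPM, and Adora2a, the adenosine receptor that restrains T cells, from 66.9 ± 6.75 to 171 ± 3.64 CPM. P2ry14, a receptor for UDP-sugars, rose from 7.94 ± 0.961 to 18.8 ± 2.21 CPM. Lower were P2ry10, a lysophospholipid receptor (158 ± 41.6 to 99.6 ± 0.499 CPM), P2ry1 (2.45 ± 0.269 to 0.875 ± 0.331 CPM) and Adk, adenosine kinase (30.1 ± 5.17 to 20 ± 1.49 CPM). Cd38, an ectoenzyme that consumes NAD, was not called (log2 fold change 0.01), but was called higher without replicate 3 of both IL-2 groups (adjusted p = 0.013). Nt5e, which encodes the adenosine-forming CD73, was at 15.3, 14.6 and 33.5 CPM in the IL-2 TCM libraries and at 21, 22.6 and 23.7 CPM in the IL-12 TCM libraries, with no call (adjusted p = 0.83, and 0.012 without replicate 3 of IL-2 TCM).

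Among the 25 tested genes of secreted cytokines and TNF-family ligands, 9 rose and 9 fell. Besides Ifng, Il10 and Csf1, Tnf, a second effector cytokine, rose from 5.77 ± 0.721 to 12.7 ± 0.774 CPM (2.19-fold). Tnfsf8, the ligand of CD30, fell from 54.4 ± 2.97 to 28.3 ± 4.83 CPM, Tnfsf14, the ligand LIGHT, from 9.1 ± 1.17 to 4.33 ± 0.0821 CPM, and Ebi3, a subunit of IL-27 and IL-35, from 2.81 ± 0.412 to 0.834 ± 0.123 CPM. Of 10 tested chemokine genes 4 rose and 2 fell. Cxcl10, which attracts cells that carry CXCR3, rose from 0.436 ± 0.175 to 2.73 ± 0.282 CPM, and Xcl1, which attracts cross-presenting dendritic cells, from 5.61 ± 0.773 to 10.9 ± 0.575 CPM. Ccl5 was at 35.6 ± 5.86 and 45.8 ± 4.42 CPM, a small difference whose call was lost without replicate 1 of IL-2 TCM or replicate 2 of IL-12 TCM (adjusted p = 0.089 and 0.12), with upper-quartile scaling (0.066) and in the fit of the groups compared alone (0.057).

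Genes of the killing machinery moved both ways. Of 21 tested members 8 rose (38.1%) and 4 fell (19%), beside 19.5% and 19.4% of all genes tested. The median log2 fold change was -0.03. Nkg7, a granule membrane protein needed for degranulation, rose from 278 ± 33.7 to 629 ± 28.3 CPM, Fasl, the death ligand, from 26.3 ± 3.34 to 62.2 ± 1.63 CPM, Ctsw, a cathepsin of killer cells, from 313 ± 64.1 to 578 ± 16.7 CPM, and Rab27a, which docks granules, from 122 ± 3.21 to 189 ± 7.53 CPM. Prf1, the pore former perforin, was at 25.3, 28.7 and 71.7 CPM in the IL-2 TCM libraries and at 106, 111 and 89 CPM in the IL-12 TCM libraries. Replicate 3 of IL-2 TCM lay closer to the IL-12 TCM libraries than to its own group, and Prf1 was 2.43-fold higher with that library and 3.72-fold higher without it. Gzmb (ENSMUSG00000015437), the main granzyme, was not called: it was at 1075, 1146 and 1880.4 CPM in the IL-2 TCM libraries and at 1159, 1069 and 989 CPM in the IL-12 TCM libraries (adjusted p = 0.18, and 0.74 without replicate 3 of IL-2 TCM), and the groups overlapped. With no filter on low counts Gzmb was called lower (adjusted p = 2.8e-06). Gzma was not called either (106 ± 18.2 and 99 ± 6.43 CPM, adjusted p = 0.44, and 0.019 without replicate 3 of both IL-2 groups), while Gzmc fell from 40.5 ± 6.5 to 21.5 ± 2.48 CPM and Gzmm from 3.79 ± 0.677 to 0.955 ± 0.226 CPM.

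Inhibitory receptors also moved both ways, 7 of 22 up and 10 down, with a median log2 fold change of -0.16, where 19.5% of all genes tested rose and 19.4% fell. Pdcd1, which encodes PD-1, was at 15.1, 16.9 and 25.8 CPM in the IL-2 TCM libraries and at 50.9, 51.8 and 49.4 CPM in the IL-12 TCM libraries (2.62-fold higher, log2 fold change 1.39 ± 0.18, adjusted p = 3.6e-05). Lag3, which binds MHC class II, was at 139, 148 and 277 CPM in the IL-2 TCM libraries and at 368, 407 and 357 CPM in the IL-12 TCM libraries (2.01-fold higher, adjusted p = 0.0051). In both genes the IL-2 TCM library nearest to the IL-12 TCM group was replicate 3. Btla rose from 23.1 ± 8.42 to 83.7 ± 5.09 CPM and Vsir, which encodes VISTA, from 178 ± 19.3 to 300.2 ± 6.08 CPM. Klrg1, a marker of short-lived effector cells, rose from 0.357 ± 0.153 to 2.04 ± 0.369 CPM, a low level. In the other direction Ctla4 fell from 366 ± 35.1 to 249 ± 9.98 CPM, Tigit from 27.1 ± 3.8 to 19.4 ± 0.495 CPM, Cd101 from 24.6 ± 3.23 to 8.1 ± 0.43 CPM and Cd96 from 254 ± 37.1 to 142 ± 7.68 CPM. Cd5 and Sit1, which damp T cell receptor signals, fell too, Cd5 from 138 ± 30.2 to 70.8 ± 1.95 CPM and Sit1 from 32.4 ± 2.06 to 10.6 ± 0.775 CPM. Havcr2, which encodes TIM-3, was not called (12.7 ± 4.46 and 11.1 ± 1.05 CPM, adjusted p = 0.61).

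On the stimulatory side 9 of 21 tested receptors rose and 5 fell, and 13 and 5 without replicate 3 of IL-2 TCM. Tnfrsf25, the death receptor DR3 that costimulates T cells, rose from 2.48 ± 0.166 to 17.6 ± 3.22 CPM, Icos from 109 ± 10.8 to 286 ± 5.42 CPM, Cd28 from 292 ± 65.5 to 591 ± 12 CPM, and Tnfrsf8, which encodes CD30, from 18.1 ± 8.44 to 69.6 ± 4.86 CPM. Slamf7, an adhesion receptor of activated lymphocytes, was at 26.1, 30.5 and 88 CPM in the IL-2 TCM libraries and at 169.6, 161 and 164 CPM in the IL-12 TCM libraries, 3.41-fold higher with and 5.75-fold higher without replicate 3 of IL-2 TCM. Slamf6, a receptor of less differentiated T cells, fell from 129 ± 41.9 to 33.5 ± 2.07 CPM, and Cd226, an activating receptor that competes with TIGIT, from 125 ± 10.3 to 59.5 ± 2.33 CPM. For Slamf6 replicate 3 of IL-2 TCM lay lowest of its group, at 151, 154 and 80.2 CPM over replicates 1 to 3.

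IL-2 receptor genes were higher in the cells that got IL-12. Il2ra (ENSMUSG00000026770), the high-affinity chain CD25 that IL-2 itself induces, was at 469, 496 and 547 CPM in the IL-2 TCM libraries and at 1770.2, 1661 and 1670 CPM in the IL-12 TCM libraries (3.37-fold higher, log2 fold change 1.75 ± 0.06, adjusted p = 1.7e-10). The shared chain Il2rg rose from 127 ± 7.84 to 179 ± 4.9 CPM, and Il2rb was not called (1266 ± 261 and 1527 ± 93.6 CPM, adjusted p = 0.1, and 0.00096 without replicate 3 of IL-2 TCM). Stat5a rose from 113 ± 3.84 to 228 ± 5.21 CPM and Stat5b from 236 ± 1.11 to 358 ± 8.59 CPM. Of 30 tested IL-2 receptor genes and STAT5 targets 13 rose and 6 fell, and 18 rose and 6 fell without replicate 3 of IL-2 TCM. Pim1, a survival kinase, rose from 154 ± 2.83 to 595 ± 30.3 CPM, and Ccnd3, cyclin D3, from 149.8 ± 45.6 to 393 ± 8.75 CPM. Bcl2, the survival factor, fell from 325 ± 14.3 to 168 ± 3.68 CPM, Il4ra from 388 ± 43.9 to 213 ± 8.17 CPM and Socs2, a feedback inhibitor, from 25.7 ± 3.05 to 12.5 ± 0.848 CPM. Cish, the STAT5 target that damps IL-2 signals, was at 20.8, 20.5 and 46.7 CPM in the IL-2 TCM libraries and at 16.5, 17.2 and 17.5 CPM in the IL-12 TCM libraries. Its call as lower (adjusted p = 0.024) was lost when any 1 of the IL-12 TCM libraries was left out (adjusted p = 0.067, 0.06 and 0.054 for replicates 1 to 3). The highest of its 6 values was that of replicate 3 of IL-2 TCM.

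Other feedback genes rose. Socs3, which blocks signals of the gp130 and IL-12 receptors, rose from 45.9 ± 11.1 to 126 ± 4.3 CPM, Socs1 from 48.3 ± 2.66 to 74.7 ± 10 CPM and Ptpn2, a phosphatase of JAK kinases, from 74.3 ± 2.26 to 119 ± 2.73 CPM. Usp18, a brake of the type I interferon receptor, was at 29.8, 28.7 and 33.7 CPM in the IL-2 TCM libraries and at 272, 263 and 271 CPM in the IL-12 TCM libraries (8.74-fold higher, log2 fold change 3.13 ± 0.08, adjusted p = 6.3e-12). Over the 15 tested feedback genes 6 rose and 4 fell, and the median was 0.00, and -0.07 with upper-quartile scaling.

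In a list of cytokine receptors of the common gamma, IL-1 and IL-10 families 11 of 28 tested members rose and 13 fell. The receptors of IL-2 and IL-18 given above are of these families, so this is not a count of further receptors alone. Il1rl1, the receptor of the alarmin IL-33, rose from 4.87 ± 1.24 to 41.6 ± 3.86 CPM, and Il7r, the receptor of the survival cytokine IL-7, from 213 ± 42.6 to 523 ± 4.97 CPM. Receptor chains of interferons fell: Ifngr2 from 18.1 ± 1.8 to 3.48 ± 0.0339 CPM, Ifnar1 from 257 ± 13.5 to 157 ± 2.64 CPM and Ifnar2 from 100 ± 8.15 to 47.6 ± 2.69 CPM. Of the chains of the IL-10 receptor Il10ra fell from 225 ± 61.8 to 129 ± 1.72 CPM and Il10rb from 52.9 ± 2.82 to 28.9 ± 3.86 CPM. Ifngr1, the ligand-binding chain of the interferon gamma receptor, was not called (462 ± 64.3 and 396 ± 11 CPM, adjusted p = 0.072), but was called lower without replicate 3 of IL-2 TCM (adjusted p = 0.0019).

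Interferon-stimulated genes had no common direction: of 59 tested members 18 rose and 21 fell, and the median was -0.16. Usp18, Ifitm3 (6.75 ± 0.338 to 43 ± 3.53 CPM), an antiviral membrane protein, and Gbp2 were among those that rose. The GTPases Irgm1, Irgm2 and Iigp1 fell, Irgm1 from 193 ± 6.25 to 115 ± 5.96 CPM, Irgm2 from 136 ± 3.04 to 78.1 ± 1.27 CPM and Iigp1 from 313 ± 20.8 to 131 ± 3.5 CPM. These families hold close paralogs, so single members are less certain than unique genes. Among the 15 STAT and IRF genes 2 rose and 6 fell, and without replicate 3 of IL-2 TCM 5 rose and 6 fell. Irf7 fell from 32.1 ± 0.937 to 18.1 ± 1.15 CPM and Irf9 from 93 ± 2.13 to 69.1 ± 1.23 CPM. In a list of MHC class I and immunoproteasome genes, which load and show peptides, 7 of 21 rose and 6 fell. With upper-quartile scaling 3 rose and 8 fell, and without replicate 3 of IL-2 TCM 4 and 6. The list also holds the class II genes Cd74 (17.4 ± 3.4 to 8.3 ± 0.636 CPM) and Ciita (2.5 ± 0.424 to 0.727 ± 0.132 CPM). Both are among those that fell, and both belong to the MHC class II list below as well.

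Transcription factors of effector and memory fate moved both ways. Of 48 tested factors 21 rose and 13 fell (median 0.26), beside 19.5% and 19.4% of all genes tested. Tbx21, which encodes T-bet, rose from 80.2 ± 15.3 to 155 ± 7.23 CPM (1.93-fold). Id2, which supports effector cells, rose from 123 ± 20.2 to 288 ± 14.2 CPM, Bhlhe40, a regulator of cytokine output, from 107 ± 58.9 to 523 ± 19.1 CPM, Hopx from 26 ± 1.29 to 183 ± 12.8 CPM and Rora from 16.6 ± 2.13 to 60.9 ± 3.28 CPM. Prdm1, which encodes Blimp-1, was at 6.44, 8.56 and 14.8 CPM in the IL-2 TCM libraries and at 22.1, 18.1 and 20.9 CPM in the IL-12 TCM libraries, and its call as higher (adjusted p = 0.04) was lost in 10 of the alternatives, for example without replicate 1 of IL-2 TCM (adjusted p = 0.13). Tcf7 (ENSMUSG00000000782), the TCF-1 gene of memory and stem-like T cells, was at 1173, 1222 and 707 CPM in the IL-2 TCM libraries and at 324, 322 and 352 CPM in the IL-12 TCM libraries (3.11-fold lower, log2 fold change -1.64 ± 0.17, adjusted p = 6.5e-06). Replicate 3 of IL-2 TCM lay between the rest of its group and the IL-12 TCM libraries. Eomes, the second T-box factor, fell from 59.8 ± 8.3 to 21.8 ± 2.65 CPM, Id3, a memory partner of Id2, from 18.7 ± 5.13 to 3.02 ± 0.414 CPM, Myb from 171 ± 67.2 to 41.1 ± 3.95 CPM, Tox, the exhaustion factor, from 9.18 ± 1.23 to 2.47 ± 0.234 CPM, and Gata3 from 49.9 ± 3.1 to 20.2 ± 0.943 CPM.

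Memory, homing and quiescence genes fell more often than they rose, 12 against 5 of 23, where 19.4% of all genes tested fell, and their median was -0.50. Without replicate 3 of IL-2 TCM 15 fell and 4 rose, with a median of -0.63. Some members of this list also belong to lists above. Ccr7, the receptor that leads T cells into lymph nodes, fell from 386 ± 22.5 to 245 ± 9.64 CPM, and Dapl1, a gene of naive and memory cells, from 62.9 ± 15.9 to 8.55 ± 0.269 CPM. Klf2, which keeps T cells recirculating, fell from 50.5 ± 16.6 to 19.4 ± 2.6 CPM. Igfbp4, which binds insulin-like growth factors, rose from 13.6 ± 3.42 to 205 ± 15.2 CPM and Btg1, an antiproliferative factor of resting cells, from 300.3 ± 45.3 to 821 ± 16.1 CPM.

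Chemokine receptors changed in large steps. Cxcr6, a receptor of resident and tumor-infiltrating T cells, was at 22.7, 25.3 and 22.1 CPM in the IL-2 TCM libraries and at 294, 326 and 293 CPM in the IL-12 TCM libraries (13-fold higher, log2 fold change 3.70 ± 0.10, adjusted p = 8.6e-12). Gpr183, an oxysterol receptor, rose from 12.4 ± 4.18 to 76.6 ± 0.952 CPM and Xcr1, the receptor of XCL1, from 0.602 ± 0.292 to 8.57 ± 1.7 CPM. Cxcr3 (ENSMUSG00000050232), the receptor of CXCL9 and CXCL10 by which effector T cells enter inflamed tissue, was at 150.4, 161 and 88.8 CPM in the IL-2 TCM libraries and at 44.4, 39.7 and 45.6 CPM in the IL-12 TCM libraries (3.09-fold lower, log2 fold change -1.63 ± 0.18, adjusted p = 9.6e-06). Ccr9, the gut homing receptor, fell from 8.84 ± 1.04 to 2.32 ± 0.128 CPM and Ptger2, a receptor of prostaglandin E2, from 7.88 ± 0.817 to 2.26 ± 0.563 CPM. In all 7 of 20 tested receptors rose and 8 fell. Xcr1 is also a marker of dendritic cells. Of the 4 tested dendritic cell markers 3 rose and 1 fell (median 0.73), and 2 rose and 1 fell without replicate 3 of IL-2 TCM. The summed level of the 8 markers was 28.1 to 41.4 CPM in IL-2 TCM and 51.3 to 56.6 CPM in IL-12 TCM. Batf3 made up most of both sums (22.7 ± 6.52 to 42.4 ± 1.17 CPM). Zbtb46 lost its call as higher whichever library was left out (adjusted p up to 0.25). The 4 markers not tested, Clec9a, Flt3, Siglech and Cd209a, stayed at or near 0 in both groups, and the part of dendritic cells in the results was not tested.

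Adhesion molecules fell more often than they rose (14 against 4 of 29, median -0.38, where 19.4% of all genes tested fell and 19.5% rose). The median was -0.16 without replicate 3 of IL-2 TCM, with 13 members lower and 5 higher. Itgae (ENSMUSG00000005947), the integrin CD103 that binds E-cadherin on epithelium, was at 63.8, 66.8 and 76 CPM in the IL-2 TCM libraries and at 6.02, 6.01 and 4.25 CPM in the IL-12 TCM libraries (12.7-fold lower, log2 fold change -3.67 ± 0.11, adjusted p = 2.8e-11). Itgax, the integrin CD11c, fell from 8.33 ± 1.05 to 1.09 ± 0.232 CPM, Itgb1 from 231 ± 3.19 to 129 ± 2.15 CPM and Cd9, a tetraspanin, from 24.6 ± 2.03 to 10 ± 0.61 CPM. Icam1, the ligand of LFA-1, rose from 50.5 ± 8.12 to 132 ± 5.06 CPM and Emb, embigin, from 274 ± 38.5 to 538 ± 15.7 CPM. Tests of the LFA-1 chains Itgal and Itgb2 gave log2 fold changes of 0.06 and 0.16 and no call with all libraries, and Itgb2 was called higher without replicate 3 of IL-2 TCM (adjusted p = 0.0013). TGF-beta is a known inducer of Itgae. Of 22 tested genes of its pathway, Itgae among them, 7 rose and 6 fell. Tgfbr1, its signalling receptor, fell from 32.1 ± 1.57 to 18.3 ± 0.996 CPM. Tgfbr3 and Smurf1 were higher under every alternative, with log2 fold changes of 0.53 to 0.67 and 0.45 to 0.58. The part of TGF-beta in the fall of Itgae was not tested.

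The 12 lowest genes at 10 CPM or more held Itgae and 11 others, most of them better known from other tissues. Tbc1d4, a Rab GTPase-activating protein of glucose transporter traffic, was at 84.5, 89.2 and 71.5 CPM in the IL-2 TCM libraries and at 9.41, 8.58 and 9.29 CPM in the IL-12 TCM libraries (8.98-fold lower). Tspan32, a blood cell tetraspanin, was at 79.3, 80 and 118 CPM in the IL-2 TCM libraries and at 7.58, 7.74 and 8.34 CPM in the IL-12 TCM libraries (11.7-fold lower). Slc6a19, a transporter of neutral amino acids, fell from 38.7 ± 14.9 to 4.02 ± 0.781 CPM and Wnt10b, a Wnt ligand, from 22.1 ± 4.08 to 1.42 ± 0.0862 CPM. Lad1, ladinin, fell from 11.8 ± 0.496 to 0.728 ± 0.144 CPM, Gucy2e, a guanylate cyclase of the retina, from 14.2 ± 3.6 to 1.32 ± 0.128 CPM, Trpm1, a cation channel, from 17.7 ± 1.78 to 1.98 ± 0.156 CPM, and Nrgn, neurogranin, from 27.5 ± 3.83 to 3.32 ± 0.378 CPM. Capn5, a calpain, fell from 10.4 ± 5.71 to 1.21 ± 0.127 CPM and Nrn1, neuritin, from 16 ± 11.5 to 2.01 ± 0.311 CPM. Nrn1 was 7.98-fold lower with and 4.76-fold lower without replicate 3 of IL-2 TCM. Selenbp1, a methanethiol oxidase, rested on that library: it was at 5.57, 7.53 and 99.1 CPM in the IL-2 TCM libraries and at 1.99, 3.71 and 2.45 CPM in the IL-12 TCM libraries, and without replicate 3 the call was lost (adjusted p = 0.21).

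Killer cell lectin-like receptors gave 7 higher and 3 lower of 15 tested, many at a few CPM and close to each other in sequence. The 2 most abundant, Klrd1 and Klrk1, fell, Klrd1, which encodes CD94, from 429 ± 117 to 174 ± 15.6 CPM, and Klrk1, the NKG2D gene, from 305 ± 43.5 to 169 ± 5.42 CPM. Klrc1, the NKG2A partner of CD94, rose from 13.9 ± 2.72 to 26.6 ± 1.86 CPM. The summed level of the list was 588 to 919 CPM in the IL-2 TCM libraries and 386 to 415 CPM in the IL-12 TCM libraries, while its median log2 fold change was 0.57, and -0.18 over the members with a mean of at least 5 CPM.

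Of 36 tested genes of T cell receptor signalling 15 rose and 7 fell (41.7% and 19.4%), beside 19.5% and 19.4% of all genes tested. Fyn, a Src kinase, rose from 272 ± 14.4 to 639 ± 14.9 CPM, Pag1, its membrane adaptor, from 33.7 ± 3.94 to 90.6 ± 5.86 CPM, and Lck from 626 ± 6.05 to 879 ± 26 CPM. Lower were Cblb (309.7 ± 11.8 to 204 ± 8.05 CPM), a ubiquitin ligase, Ubash3b (55.1 ± 2.65 to 35.8 ± 3.2 CPM), a phosphatase, and Plcg1 (384 ± 29.8 to 275 ± 12.9 CPM). Of a list of AP-1, EGR and NR4A activation factors downstream, 15 of 29 rose and 3 fell. The list also holds Dusp10, a phosphatase that brakes MAP kinases, which is among those that fell (55.3 ± 3.23 to 42.3 ± 1.86 CPM). Jun was at 19.7, 20.9 and 40.2 CPM in the IL-2 TCM libraries and at 286, 305 and 299 CPM in the IL-12 TCM libraries (11-fold higher, log2 fold change 3.46 ± 0.21, adjusted p = 2.1e-08), and Fosl2 was at 12.1, 12.1 and 20.6 CPM in the IL-2 TCM libraries and at 172, 167 and 172 CPM in the IL-12 TCM libraries (11.4-fold higher). Fos rose from 0.79 ± 0.0841 to 9.82 ± 1.39 CPM. For Jun and Fosl2 replicate 3 was the highest of the IL-2 TCM libraries and still lay far below the IL-12 TCM libraries. Nr4a3 fell from 19.1 ± 1.43 to 5.18 ± 0.311 CPM, while Nr4a1 was not called (log2 fold change 0.12).

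Within the NF-kappaB list 12 rose and 6 fell of 23. Subunit genes of the noncanonical arm rose, Nfkb2 from 63.4 ± 3.45 to 86.2 ± 1.01 CPM and Relb from 21.5 ± 2.04 to 29.7 ± 0.423 CPM, and those of the canonical arm fell or did not pass, Rel from 78.7 ± 13.6 to 40.7 ± 3.62 CPM, Nfkb1 from 438 ± 41.9 to 305 ± 8.75 CPM and Rela at 88.9 ± 6.85 and 96.7 ± 2.01 CPM (adjusted p = 0.12, and 0.017 without replicate 3 of IL-2 TCM).

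Genes of lipid synthesis rose together. Of 25 tested genes of cholesterol synthesis 24 rose, with a median of 0.94, beside 19.5% of all genes tested that rose. Acat2, the first enzyme, was at 70.2, 70.6 and 74.9 CPM in the IL-2 TCM libraries and at 187, 191 and 187 CPM in the IL-12 TCM libraries (2.62-fold higher, log2 fold change 1.39 ± 0.07, adjusted p = 2.8e-09). Cyp51, which demethylates lanosterol, was at 233, 236 and 231 CPM in the IL-2 TCM libraries and at 525, 521 and 521 CPM in the IL-12 TCM libraries (2.24-fold higher), and Msmo1, the next oxidase, rose from 126 ± 8.05 to 274 ± 12.4 CPM. Hmgcs1, an early enzyme of the mevalonate path, rose from 371 ± 22.7 to 850.1 ± 18.4 CPM. Of 18 tested genes of fatty acid synthesis 14 rose and 1 fell (median 0.85). Fads2, a desaturase, rose from 45.5 ± 2.14 to 150.2 ± 4.6 CPM, Elovl5, an elongase, from 180.4 ± 16.9 to 368 ± 12.7 CPM, Scd1 from 64.5 ± 15.6 to 248 ± 3.62 CPM and Fasn, fatty acid synthase, from 404 ± 33.3 to 794 ± 25 CPM. Acacb, the acetyl-CoA carboxylase that limits fatty acid oxidation, fell from 4.3 ± 1.12 to 1.4 ± 0.416 CPM. In neither list did the counts differ by more than 1 without replicate 3 of IL-2 TCM.

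Cholesterol efflux genes, which the sterol receptors LXR drive, were split at 5 up and 4 down of 14. Abca1, the exporter, rose from 6.64 ± 0.404 to 21.1 ± 1.31 CPM, and Mylip, which degrades the LDL receptor, from 10.3 ± 1.59 to 35.6 ± 0.689 CPM. Npc1 fell from 96.6 ± 2.26 to 67.1 ± 3.57 CPM. Fatty acid oxidation genes fell in 9 of 20 and rose in 2. Cpt1a, the gate of mitochondrial import, fell from 173 ± 15.1 to 103 ± 3.98 CPM, Acaa2 from 85.5 ± 4.82 to 56.9 ± 1.49 CPM and Acads from 59.9 ± 6.77 to 39.5 ± 4.41 CPM, but Acadl, the long-chain dehydrogenase, rose from 126 ± 9.14 to 359 ± 9.75 CPM.

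**Figure D3:**
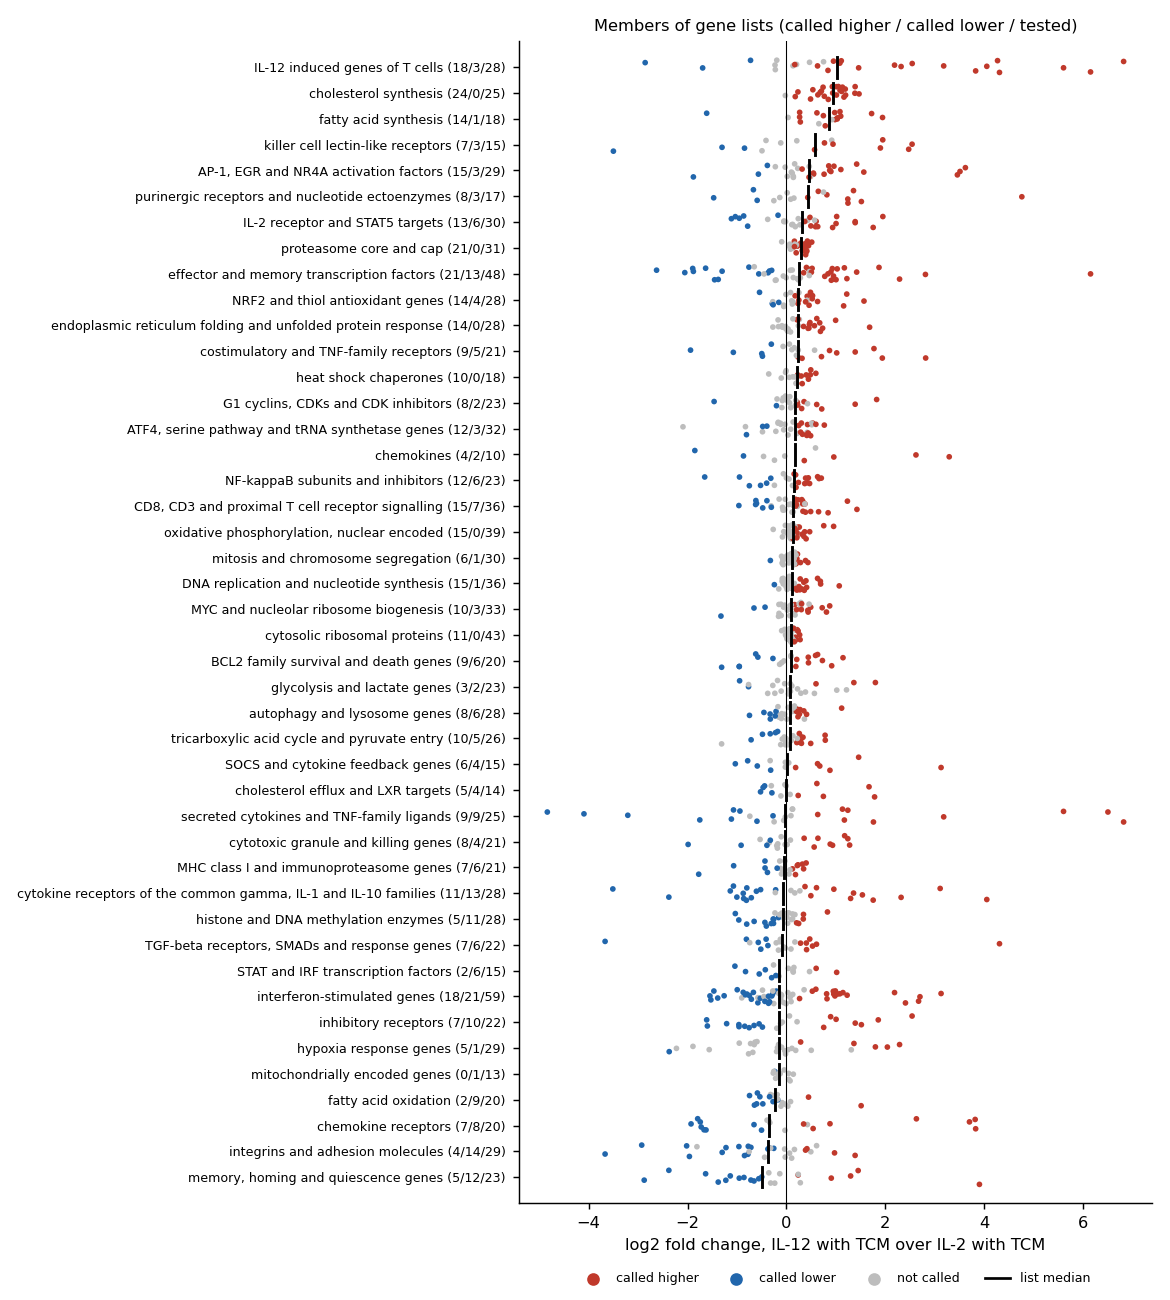
Log2 fold change of IL-12 TCM over IL-2 TCM (horizontal axis) for each tested member of the gene lists with at least 10 tested members, ordered by list median (black bar), red where called higher, blue where called lower and grey where not called; the numbers after each name are members called higher, called lower and tested. IL-12 induced genes and lipid synthesis lie highest, with medians of 1.02, 0.94 and 0.85, and memory and homing genes lowest, at -0.50.

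Counts of glycolysis and hypoxia genes depended on replicate 3 of IL-2 TCM. With all libraries 3 of 23 glycolysis genes rose and 2 fell, with a median of 0.08, and without replicate 3 of IL-2 TCM 8 rose and 2 fell, with a median of 0.67. Pkm, the pyruvate kinase gene, was at 1151, 1089.5 and 3972 CPM in the IL-2 TCM libraries and at 2722, 2550.3 and 2334 CPM in the IL-12 TCM libraries. The IL-12 TCM libraries lay above replicates 1 and 2 and below replicate 3 of IL-2 TCM, and Pkm was called higher without replicate 3 (adjusted p = 0.024, against 0.67 with it) and with no filter on low counts (adjusted p = 7.7e-05). Slc2a1, the glucose transporter GLUT1, was at 27.3, 31.7 and 68.3 CPM in the IL-2 TCM libraries and at 114, 111 and 104 CPM in the IL-12 TCM libraries, and Hk2, hexokinase 2, rose from 45.4 ± 17.5 to 158 ± 23.3 CPM. For these 2 genes the IL-12 TCM libraries lay above all 3 IL-2 TCM libraries, and both were called with and without replicate 3. For the hypoxia genes the counts were 5 higher and 1 lower of 29 with a median of -0.16, and 9 and 2 with a median of 0.41 without replicate 3. Vegfa, a vascular growth factor, was at 7.03, 7.12 and 57.2 CPM in the IL-2 TCM libraries and at 20.6, 22.6 and 19.9 CPM in the IL-12 TCM libraries and was not called (log2 fold change -0.18, adjusted p = 0.89), whereas without replicate 3 of both IL-2 groups it was called higher (adjusted p = 2.6e-12). Hif1a, the oxygen-regulated factor itself, rose from 249 ± 49.3 to 640.3 ± 17.9 CPM, and Epas1, its paralog, fell from 15.5 ± 6.98 to 2.99 ± 0.734 CPM.

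**Figure D4:**
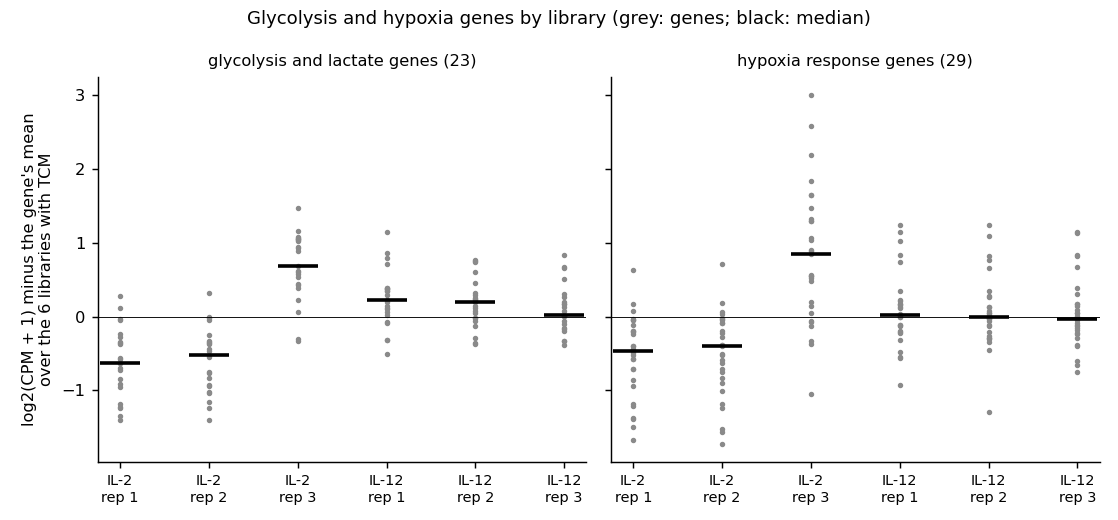
Level of 23 glycolysis genes (left) and 29 hypoxia response genes (right) in each of the 6 libraries with TCM, as log2(CPM + 1) minus the mean of the gene over the 6 libraries (vertical axis), with 1 grey point per gene and the median as a black bar. Replicate 3 of IL-2 lies above replicates 1 and 2 for 22 of 23 and 26 of 29 genes, and the IL-12 medians lie between.

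Mitochondrial and growth genes changed mostly by small amounts. Of 39 nuclear genes of oxidative phosphorylation 15 rose, with a median of 0.13, and without replicate 3 of IL-2 TCM 11 rose and 1 fell. Cycs, cytochrome c, rose from 55.9 ± 9.88 to 108 ± 1.6 CPM and Cox5a from 49.1 ± 2.18 to 82.9 ± 4.3 CPM. Of the 13 mitochondrially encoded genes 1 fell, mt-Nd2 of complex I (899.5 ± 90.9 to 763 ± 38.7 CPM), a call lost without replicate 2 or 3 of IL-2 TCM (adjusted p = 0.063 and 0.064) and without replicate 2 or 3 of IL-12 TCM (adjusted p = 0.071 and 0.091). Genes of the tricarboxylic acid cycle and pyruvate entry rose in 10 and fell in 5 of 26. With upper-quartile scaling 7 rose and 6 fell, and likewise 7 and 6 without replicate 3 of IL-2 TCM. DNA replication genes rose in 15 of 36 and fell in 1, with a median of 0.11, and without replicate 3 of IL-2 TCM in 12 and 5, with a median of 0.03. Examples were Pcna, the sliding clamp, which rose from 359.8 ± 30.5 to 754 ± 10.6 CPM, and Rrm2, which makes deoxynucleotides, which rose from 307 ± 31.3 to 474 ± 14 CPM. Mitosis genes rose in 6 and fell in 1 of 30, where 19.5% of all genes tested rose and 19.4% fell, and with upper-quartile scaling in 3 and 2. The proliferation marker Mki67 was not called (1288 ± 123 and 1324 ± 122 CPM, adjusted p = 0.73). Of 23 tested G1 cyclins, CDKs and their inhibitors 8 rose and 2 fell. Cdk6, a G1 kinase, fell from 249 ± 14.1 to 90.4 ± 8.13 CPM beside the rise of Ccnd3. With upper-quartile scaling the counts were 9 higher and 1 lower for oxidative phosphorylation and 10 higher and 3 lower for DNA replication.

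Myc, which drives growth, rose from 84.7 ± 12.4 to 155 ± 2.42 CPM, and 10 of 33 tested MYC and nucleolar genes rose and 3 fell. Proteasome genes rose in 21 of 31 (median 0.29), with Psmd3 from 113 ± 1.6 to 152 ± 1.52 CPM. Without replicate 3 of IL-2 TCM 15 rose, and with upper-quartile scaling 15 rose and 1 fell. Genes of protein folding in the endoplasmic reticulum rose in 14 of 28. The list of ATF4 targets, the serine pathway and tRNA synthetases gave 12 higher and 3 lower of 32. Ern1, the stress sensor IRE1, rose from 16.1 ± 2.03 to 51.7 ± 2.95 CPM, Ssr1, a translocon subunit, from 178 ± 1.8 to 355 ± 6.66 CPM and Atf6, a second sensor, from 40.6 ± 3.69 to 67.4 ± 3.46 CPM. Heat shock genes rose in 10 of 18, such as Hsp90aa1 from 539.8 ± 26.6 to 815 ± 37.7 CPM, and in 6 with upper-quartile scaling. Ribosomal protein genes changed little, 11 of 43 higher by small folds such as 1.21 for Rps9, and 5 higher and 1 lower with upper-quartile scaling.

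Antioxidant genes under NRF2 rose in 14 of 28 and fell in 4. Fth1, the iron store ferritin, was at 319.7, 323 and 276 CPM in the IL-2 TCM libraries and at 918, 919.8 and 888 CPM in the IL-12 TCM libraries (2.97-fold higher, log2 fold change 1.57 ± 0.06, adjusted p = 3.7e-10), and Gpx4, which removes lipid peroxides, rose from 153 ± 10.3 to 215 ± 6.32 CPM. In the BCL2 family 9 rose and 6 fell of 20. Death effectors went both ways: Bcl2l11, which encodes BIM, rose from 157 ± 23.1 to 296 ± 4.86 CPM and Pmaip1, the NOXA gene, from 18.7 ± 1.25 to 41.4 ± 1.5 CPM, whereas Bbc3, the PUMA gene, fell from 30.8 ± 0.759 to 12.4 ± 0.514 CPM and Bid from 30.6 ± 0.246 to 19.9 ± 0.76 CPM. The survival gene Mcl1 rose from 389.5 ± 37.8 to 586 ± 8.23 CPM and Bcl2 fell. Autophagy and lysosome genes rose in 8 and fell in 6 of 28, and with upper-quartile scaling in 4 and 9.

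Among enzymes of histone and DNA methylation 11 of 28 fell and 5 rose. Of the de novo DNA methyltransferases Dnmt3a fell from 115 ± 3.63 to 73.1 ± 0.876 CPM and Dnmt3b from 20.5 ± 1.62 to 10.5 ± 0.79 CPM, and Tet3, which oxidises methylcytosine, fell from 166 ± 10.2 to 95.2 ± 4.41 CPM. Eed, a core subunit of the repressive complex PRC2, rose from 57.2 ± 0.522 to 102 ± 1.11 CPM, while its partner Ezh2 was not called (237 ± 21.5 and 258 ± 7.39 CPM, adjusted p = 0.14).

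The CD8 T cell label held in all 6 libraries, and transcripts of other cells were low but not equal. Cd8a was at 1111, 1085 and 1007 CPM in the IL-2 TCM libraries and at 1347, 1365 and 1314 CPM in the IL-12 TCM libraries. Cd8b1 was at 642, 723 and 566 CPM in the IL-2 TCM libraries and at 483, 509 and 475 CPM in the IL-12 TCM libraries. The 13 identity genes summed to 6299 to 6467 CPM with IL-2 and 6499 to 6766 CPM with IL-12. Cd4 was at 2.76, 4.13 and 4.55 CPM against 2.69, 2.51 and 2.15 CPM. Of 7 tested mast cell and basophil genes 6 fell (median -1.31), where 19.4% of all genes tested fell, with a summed level of 83.8 to 129.6 CPM with IL-2 and 54.1 to 57.3 CPM with IL-12. Cpa3, a mast cell protease, fell from 20.1 ± 5.07 to 6.59 ± 0.217 CPM. Platelet genes fell in 5 of 6 tested (sums 43.7 to 57 and 24.6 to 30.8 CPM), and MHC class II genes in 5 of 7 (sums 136 to 222 and 87.7 to 91.1 CPM). B cell genes summed to 18.9 to 21.8 CPM and 9.19 to 11 CPM, with 7 of 10 under 1 CPM in every library. Macrophage genes summed to 75 to 89 CPM and 80.5 to 84.2 CPM. Of the 13 9 stayed under 1 CPM, C1qa and C1qb had no count in any of the 6 libraries, and of 5 tested 1 fell. The part of these cells in the results was not tested.

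In the list of CD4 and regulatory T cells 6 of 8 tested genes fell and 1, Il2ra, rose. The summed level of the 9 genes, Il2ra included, was 914 to 965 CPM in IL-2 TCM and 1966 to 2061 CPM in IL-12 TCM. Among those that fell were Izumo1r, a surface protein of regulatory T cells (17.2 ± 2.75 to 2.7 ± 0.0495 CPM), and Lrrc32, which presents latent TGF-beta (7.02 ± 0.0928 to 0.714 ± 0.156 CPM). Foxp3 was low throughout, at 1.11, 0.848 and 1.48 CPM against 0.323, 0.314 and 0.749 CPM. NK cell genes numbered 6 tested, with 1 higher and 2 lower. With Eomes included, the list summed to 53.8 to 73.4 CPM in IL-2 TCM and 24.1 to 31.2 CPM in IL-12 TCM. Eomes, the T-box factor given above, made up most of both sums, and Ncr1 stayed under 1 CPM in all libraries. Gamma delta T cell genes rose in 2 and fell in 1 of 5, and rose in 1 and fell in 2 without replicate 3 of IL-2 TCM. The calls of Cd163l1 and Tcrg-C1 as higher and of Sox13 as lower were each lost under some alternatives. Trdc was at 29.9 ± 6.2 and 31.7 ± 1.99 CPM (adjusted p = 0.71). Erythroid genes summed to at most 1.99 CPM, and fibroblast and epithelial genes to 3.97 to 17 CPM with IL-2 and 2.72 to 3.45 CPM with IL-12, where Col1a1 was high in replicate 2 of IL-2 TCM alone (1.31, 11 and 1.16 CPM).

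The same cytokine contrast was available without TCM, in 6 other libraries. There 7171 genes were called (45.1%). Of the genes called with TCM 4678 were also called without it in the same direction, which is 75.5% of those called with TCM and 65.2% of those called without, and 27 were called in opposite directions. Across the 15897 genes the log2 fold changes of both contrasts had a Pearson correlation of 0.862 and a Spearman correlation of 0.783. Genes are not independent replicates, so this is a description. Il18r1 rose 17.8-fold without TCM and 16.6-fold with it, Ifng 41.5-fold and 48.7-fold, and Furin 16.7-fold and 19.8-fold, and the difference was not called for any of the 3.

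A difference between the contrasts was called for 251 genes, 189 higher with TCM (1.19% of the genes tested) and 62 lower (0.39%). This count depended on single libraries. It was 1164 without replicate 3 of IL-2 TCM and 2105 without replicate 3 of both IL-2 groups. It was 149 and 142 without replicate 1 or 2 of IL-2 TCM, 114, 105 and 116 without replicate 1, 2 or 3 of IL-12 TCM, 108, 114 and 121 without those of IL-12, and 185, 148 and 275 without those of IL-2. Trim66 went from 1.37 ± 0.582 to 17.8 ± 0.906 CPM without TCM and from 0.969 ± 0.297 to 101 ± 6.55 CPM with it (difference of log2 fold changes 3.04 ± 0.33, adjusted p = 0.00068). Neb, a giant muscle protein, rose from 28.2 ± 12.7 to 55.4 ± 2.62 CPM without TCM and from 27.6 ± 7.12 to 198 ± 25.4 CPM with it, and Fgl2, a secreted immune regulator, was at 22.9 ± 6.6 and 34.9 ± 2.03 CPM without TCM and rose from 6.07 ± 1.73 to 27.3 ± 1.64 CPM with it. Cd93, a C-type lectin receptor, fell with IL-12 without TCM (22.2 ± 1.28 to 4.96 ± 0.379 CPM) and was at 11.4 ± 2.84 and 13.3 ± 1.33 CPM with it, where it was not called with all libraries and was called higher without replicate 3 of IL-2 TCM (adjusted p = 0.0055). Cxcr6 rose 6-fold without TCM and 13-fold with it.

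Genes whose contrast was lower with TCM included Tbc1d4, at 79.8 ± 7.95 and 21.2 ± 2.12 CPM without TCM and 81.7 ± 9.18 and 9.09 ± 0.452 CPM with it (difference -1.25 ± 0.15, adjusted p = 0.001), and Tmem154, at 25.1 ± 2.41 and 18.3 ± 0.974 CPM and 15.6 ± 0.466 and 3.98 ± 0.374 CPM (difference -1.52 ± 0.14, adjusted p = 0.00026). Rap1gap2, which switches off the adhesion GTPase Rap1, was at 11.5 ± 1.66 and 10.3 ± 0.565 CPM without TCM and at 1.78 ± 0.433 and 0.448 ± 0.172 CPM with it (difference -1.81 ± 0.33). Arhgap29 and Ptpn5 rose with IL-12 in both settings and less with TCM (differences -1.55 ± 0.30 and -1.15 ± 0.21). The calls of the differences of Rap1gap2, Arhgap29 and Ptpn5 were each lost under some alternatives. In the interferon-stimulated list 8 members differed, all higher with TCM, which can also mean a smaller fall. Without TCM 12 members of that list rose and 32 fell, with a median of -0.39, against 18, 21 and -0.16 with TCM. In the cholesterol synthesis list 3 differed, and likewise 3 in the cholesterol efflux list, all higher with TCM.

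**Figure D5:**
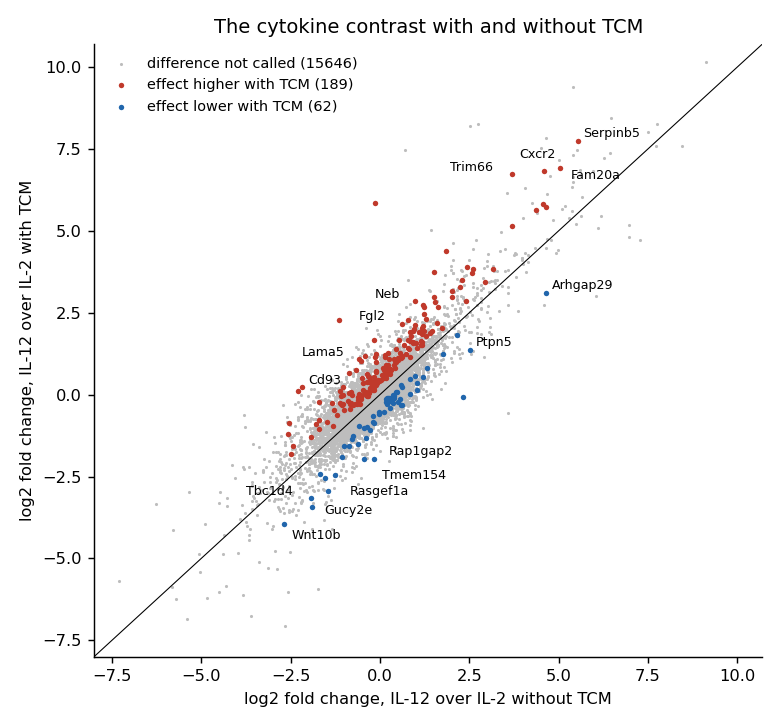
Log2 fold change of IL-12 over IL-2 with TCM (vertical axis) against the same without TCM (horizontal axis) for the 15897 genes tested, with the 189 genes whose contrast was called higher with TCM in red, the 62 called lower in blue, the rest in grey and the line of equal values in black. Most points lie along the line, and the named genes are the 8 highest and 8 lowest differences at 10 CPM or more.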

How the data were processed

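A directional NEBNext Ultra II kit turned total RNA into libraries, per the labels' protocols. The extraction text speaks of livers of mice given bortezomib, which no sample label names. The deposited count table holds whole-number counts per gene that the authors made after alignment with STAR 2.7.7a, per the submitters' processing notes, which also name edgeR without a version and the human build GRCh38, while the gene identifiers are mouse ones. The counter, its annotation and its strand setting are not given in the sources used here, so reads of overlapping or antisense genes and of near-identical paralogs may be assigned to either gene. The authors also deposited a signal per gene and library, which equals the count per 1e+06 counts on TMM-scaled library sizes (largest relative spread 2.4e-14). A name table gave symbols for 55141 of 55487 identifiers, and the 346 without a symbol held 0.0294 to 0.0526% of the counts.

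Here library sizes were scaled by TMM, genes were kept by filterByExpr (minimum count 10, minimum total 15), and edgeR 4.0.16 in R 4.3.3 was fitted with 1 mean per group over all 12 libraries (quasi-likelihood test, common BCV, the biological coefficient of variation, 0.104). Residuals of same-numbered IL-2 and IL-2 TCM libraries had correlations of 0.28, 0.25 and 0.57, and those of same-numbered libraries of the other pairs of groups lay between -0.044 and 0.072, so the numbers pair the IL-2 groups in the data, while no label says what they mark. P-values were adjusted by Benjamini-Hochberg over the 15897 genes of each contrast, with a threshold of 0.05. Levels carry the SD over 3 libraries, and log2 fold changes carry a standard error computed as their size over the root of F. The test was also run on simulated data with known changes. The members and the 58 gene lists (45 of pathways, 13 of cell types, with 1185 of 1187 symbols matched) were chosen with earlier results of these data known. Lists are described by their counts and medians and were not tested as sets.

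Named genes follow a rule: the 12 highest and 12 lowest called log2 fold changes at 10 CPM or more in the higher group whose libraries do not overlap, up to 3 members of each list per direction with the smallest p and at least 1 CPM, 36 anchor genes, and the 8 highest and 8 lowest differences of the contrast with and without TCM. Unnamed gene models were left out. Some genes of the rule are not reported here. These genes were chosen after their values were seen: Cd28, Cd38, Cd4, Ctsw, Entpd1, Ezh2, Fasn, Foxp3, Gadd45g, Hmgcs1, Ifngr1, Il10ra, Il10rb, Il1rl1, Il2rb, Il2rg, Itgal, Itgb2, Klf2, Map3k8, Mcl1, Mki67, Myb, Nfkb1, Nr4a1, Nt5e, Rela, Relb, Scd1, Slamf7, Tnfrsf8 and Trdc. So were further genes named as examples of cell types near 0.

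Alternatives were DESeq2 size factors, upper-quartile scaling, no filter, a floor of 5 CPM on the mean, the test of DESeq2 1.42.0, limma 3.58.1 on log2(CPM + 1) of the deposited signal with 0.1 or 5 in place of 1, a replicate block, only the groups compared, each library left out, and both replicates 3 of IL-2 left out. Promoters came from RefSeq (GRCm38.p6).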

Additional observations from a re-analysis of the deposited data

Results flagged for a closer look

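A test of the difference between the cytokine contrasts with and without TCM, an interaction term in edgeR's quasi-likelihood fit, called 251 genes. The 8 highest differences of log2 fold changes at 10 CPM or more were those of Trim66 (3.04), Cd93 (2.38), Cxcr2 (2.22), Serpinb5 (2.2), Fam20a (1.88), Neb (1.87), Lama5, a laminin chain (1.66), and Fgl2 (1.55). The 8 lowest were those of Rap1gap2 (-1.81), Arhgap29 (-1.55), Gucy2e (-1.52), Tmem154 (-1.52), Wnt10b (-1.28), Tbc1d4 (-1.25), Rasgef1a (-1.18) and Ptpn5 (-1.15). Of these 16 genes 8 lost the call under at least 1 alternative, with highest adjusted p-values of 0.23 for Serpinb5, 0.27 for Rap1gap2, 0.66 for Gucy2e, 0.10 for Cxcr2, 0.14 for Lama5, 0.088 for Arhgap29, 0.12 for Rasgef1a and 0.059 for Ptpn5. Wnt10b, Gucy2e and Tbc1d4 were also among the 12 genes with the lowest log2 fold changes with TCM.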

How the results depend on the processing

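The count of genes called at 0.05 (6192) ranged from 4910 to 6747 with 1 library left out and from 4679 to 7657 under the other alternatives. It was 5241 when only the groups compared were fitted and 6542 with a replicate block, which also gave 1684 genes at 2-fold and 330 differences. Between IL-2 TCM and IL-12 TCM equal replicate numbers did not mark matched samples (residual correlations -0.023, -0.017 and -0.044). Genes called at 2-fold (1663) numbered 626 at a mean of at least 5 CPM, 822 with limma on log2(CPM + 1) and 463 on log2(CPM + 5), and 1540 to 1763 with 1 library left out. Differences of the contrasts (251) numbered 779 with no filter, 537 with DESeq2, 2105 with both replicates 3 of IL-2 left out and 105 to 1164 with 1 library left out, the highest without replicate 3 of IL-2 TCM. The cause was not tested. List medians of log2 fold changes were checked for a change of sign where the main median was at least 0.1 in size. Smaller medians also changed sign, such as that of the tricarboxylic acid cycle list with upper-quartile scaling (-0.01). Of the medians checked, sign changed for killer cell lectin-like receptors at a mean of at least 5 CPM (-0.18) and for chemokines in the fit of the groups compared alone (-0.04). It also changed for NK cell genes with limma and 1, 0.1 or 5 added (0.10, 0.28 and 0.0034). For hypoxia genes it changed without replicate 3 of IL-2 TCM (0.41, against -0.31 without replicate 1 of it) or without both replicates 3 of IL-2 (0.40). Vegfa changed sign and gained a call with both replicates 3 of IL-2 left out (1.55). Its highest log2 fold change under any alternative was 1.56, in a fit that did not call it. Of the 325 genes named by the rule or chosen later 20 lost their call under at least 1 alternative and 11, Vegfa not counted, gained one. Leaving 1 library out leaves groups of 2 that borrow the spread of the others.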
